A study of Mus musculus with 15 samples.

Results

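Heat shock and chaperonin genes were examined in RNA from circulating extracellular vesicles (EVs), the small membrane-bound particles that cells release into the blood. The members were chosen by symbol alone: every symbol that starts with Hsp followed by a, b, d, e, h or a digit, with Dnaja, Dnajb or Dnajc and a digit, or with Cct and a digit from 2 to 8, leaving out pseudogene symbols. This rule took 83 of the 43472 gene symbols. Grouped by symbol, they comprise 28 DNAJC, 13 DNAJB and 4 DNAJA co-chaperones, 13 HSP70 genes, 9 CCT chaperonin genes, 7 small heat shock proteins, 3 HSP90 genes, 2 mitochondrial chaperonin genes, 1 HSP110 gene and 3 others (Hspbp1, Hspbap1 and Hspb11).

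EV RNA was sequenced from 3 wild type (WT, C57/bl6), 6 dystrophic (Dys, Sgcb null) and 6 hypertrophic (Hyp) mouse samples. Each sample pooled the EVs of 2 to 3 mice, aged 3 to 6 months. The methods name fewer mice per genotype than 6 separate pools of this size need, so libraries of a condition may share animals. Sgcb encodes beta-sarcoglycan, a protein of the muscle cell membrane. The labels give the hypertrophic genotype as MAGIC F1, whereas the methods give Mstn-null, and the sources also differ on whether serum or plasma was used. Mstn encodes myostatin, which restrains muscle growth, and Magic-F1 is an engineered factor that activates the receptor Met. All mice received ketamine before blood was drawn, no other agent is named for them, and the RNA was amplified before sequencing because there was little of it. The study's question was whether the mRNA cargo of EVs differs between these conditions.

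Chaperones bind unfolded or misfolded proteins and help them to fold. HSP70 proteins hold short exposed stretches of a client, J-domain proteins (DNAJ) bring clients to HSP70 and stimulate its ATPase, HSP110 exchanges its nucleotide, and HSP90 acts later on signalling proteins and kinases. Chaperonins are closed chambers: CCT, also called TRiC, folds actin and tubulin in the cytosol, and Hspd1 with its lid Hspe1 works in mitochondria. Small heat shock proteins keep clients from aggregating. In muscle, chaperones of these families assist sarcomere proteins and are induced by heat and exercise through heat shock factor, which binds inverted repeats of the bases GAA.

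Heat shock elements near the start sites are shown for members whose levels are given below, with the element in capitals and each sequence 5′ to 3′ on the gene's strand (RefSeq, GRCm38.p6). Hspe1 is at chr1:55088053-55088082 on the plus strand, and this stretch also lies in an exon of Hspd1, which is transcribed from the opposite strand. Dnajb6 is at chr5:29735844-29735873 on the plus strand and Hsph1 at chr5:149636287-149636316 on the minus strand, where the element follows the start site.
Hspe1: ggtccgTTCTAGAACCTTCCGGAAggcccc
Dnajb6: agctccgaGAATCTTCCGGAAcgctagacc
Hsph1: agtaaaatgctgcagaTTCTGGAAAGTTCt
Of the 83 members, 68 had a promoter window in the reference, from 250 bases before to 50 bases after the start. Each gene was counted once, with a match in any of its windows. The 3-unit element is GAANNTTC extended by NNGAA or TTCNNGAA extended by NNTTC. It was found for 4 of these 68 members (5.88%), namely Dnajb6, Hspd1, Hspe1 and Hsph1, compared with 0.662% of the 27025 genes with a window. The shorter GAANNTTC reads the same on both strands and lies within the 3-unit forms. It was found for 16 of 68 members (23.5%) and for 9.04% of all genes with a window. TTCNNGAA, which also reads the same on both strands, was found for 8 members (11.8%) and for 9.60% of all genes with a window. The member windows are not all independent: Hspd1 and Hspe1 share a start region, and the promoters of Hspa1a and Hspa1b are nearly identical. A match describes the letters only and is no evidence of binding.

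The inducible HSP70 pair Hspa1a and Hspa1b is shown because neither had a read in any library. Their promoters were identical at 247 of 250 bases (98.8%). A stretch before each start, with GAANNTTC in capitals, is at chr17:34972247-34972371 for Hspa1a and at chr17:34959329-34959453 for Hspa1b, both on the minus strand.
Hspa1a: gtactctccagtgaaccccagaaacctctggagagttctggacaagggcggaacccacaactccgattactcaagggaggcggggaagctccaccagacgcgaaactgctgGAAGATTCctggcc
Hspa1b: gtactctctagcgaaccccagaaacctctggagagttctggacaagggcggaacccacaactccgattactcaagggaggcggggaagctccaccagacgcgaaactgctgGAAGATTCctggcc

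Several facts of the whole series bear on these genes. Reads on genes ranged from 27227 to 7738568 in WT, from 1170610 to 32563362 in Dys and from 328710 to 6461652 in Hyp libraries. Levels are CPM, the counts of a gene scaled to the same total of reads on genes in each library, and a count of 0 allows up to 3 reads, which is between 0.0921 and 110 CPM depending on the library and covers counting error only. The title of each of 6 samples (Dystrophic 4, 5 and 6, Hypertrophic 1, 2 and 3) carries the number of a count table of the other condition. These 6 libraries were kept as labelled, so each Dys and Hyp value below rests on labels that may be crossed. Values with them exchanged are given for the counts of genes and for several members, and were not written out for the others. The EV genes Cd9, Cd63 and Cd81 summed to between 3924 and 33774 CPM per library, almost wholly from Cd9. Cd9 was detected in all 15 libraries with a mean of 12204.5 CPM. Cd63 and Cd81 were detected in 10 and 11 libraries, with means of 73.5 and 170 CPM. All 6 red cell markers were detected, with sums from 29999 to 88291 CPM in Hyp, 47060 to 155950 CPM in Dys and 22902 to 88148 CPM in WT libraries. All 6 platelet markers were detected too, with sums of 9575 to 20524 CPM in Dys, 14290 to 32963 CPM in Hyp and 18361 to 28281 CPM in WT libraries. Of 6 skeletal muscle markers 5 were detected, summing to at most 203 CPM, and Myh4 was at 0 throughout. Lymphocyte and neutrophil markers summed to at most 955 and 1836 CPM. Sums of 6 liver markers were 0 to 2181 CPM in Hyp, 0 to 156 CPM in Dys and 0 to 65.8 CPM in WT libraries. The part of these cells in the levels below was not tested. In bulk EV RNA, fewer vesicles of one origin and less RNA per vesicle cannot be told apart.

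Of the 83 chaperone genes, 62 (74.7%) had at least 1 read in some library, compared with 30.6% of all symbols. The latter include pseudogene symbols, which the members leave out, so these shares cover unlike sets. Only Dnajb4 was detected in all 15 libraries, though with under 10 reads in 5 of them (1 read in WT 1, 3, 4 and 9 in Dystrophic 2, 4 and 5, and 2 in Hypertrophic 4), 15 genes were detected in 10 or more, 17 in 6 to 9 and 30 in 1 to 5. The 21 genes at 0 throughout were Cct6b, Cct8l1, Dnajb3, Dnajb5, Dnajb7, Dnajb8, Dnajb13, Dnajc1, Dnajc5b, Dnajc5g, Dnajc12, Dnajc22, Dnajc25, Dnajc28, Hspa12a, Hspa1a, Hspa1b, Hspa1l, Hspb3, Hspb7 and Hspb9. Genes that share reads with near-identical copies are uncertain. Of the 50-base stretches, 66.3% of Hspa1a, 62.3% of Hspa1b, 71.4% of Hspa1l and 50.1% of Hspb1 occur in another gene's transcripts. Of the 83 members, 18 share over 10% and 41 share under 1%.

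**Figure D1:**
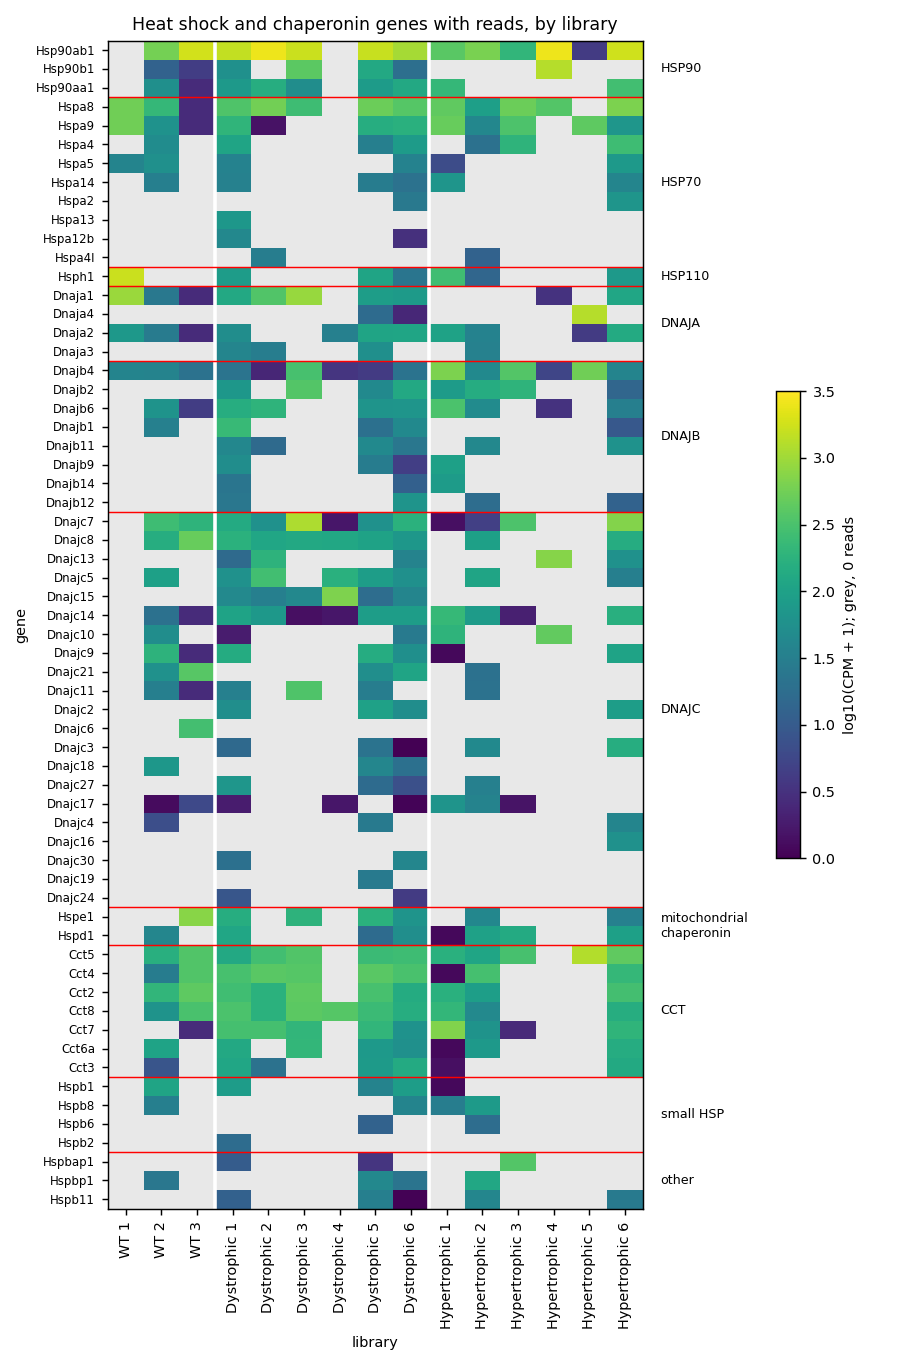
Level of each of the 62 chaperone genes with reads (vertical axis, grouped by family between the red lines and ordered by mean CPM) in each of the 15 libraries (horizontal axis, conditions split by white lines). Colour gives log10(CPM + 1) and grey marks 0 reads. Dnajb4 is the only gene with colour in every column, and columns differ in how many genes they hold, from 6 in Hypertrophic 5 to 51 in Dystrophic 6.

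The number of chaperone genes detected varied as much within conditions as between them. WT libraries held 7, 34 and 23 of the 83 genes. Dys libraries held from 9 to 51 genes with a mean of 32.8 ± 18.3 (SD, n = 6), and Hyp libraries from 6 to 37 with a mean of 21 ± 13.7 (SD, n = 6), while the WT mean was 21.3 ± 13.6 (SD, n = 3). The ranges of the 3 conditions overlapped. Dystrophic 1 held 50 genes from 1170610 reads and Dystrophic 4 held 9 from 1608699 reads. At the depth of the smallest library, 27227 reads, the expected number was between 4.67 and 36.8 in Dys, between 4.17 and 30.4 in Hyp and between 7 and 23.6 in WT libraries. With the 6 libraries exchanged, the Dys and Hyp means were 27.7 and 26.2 genes, and with the 9 others alone they were 30.3 and 17.0. The part of depth and of the exchange in this difference was not tested.

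**Figure D2:**
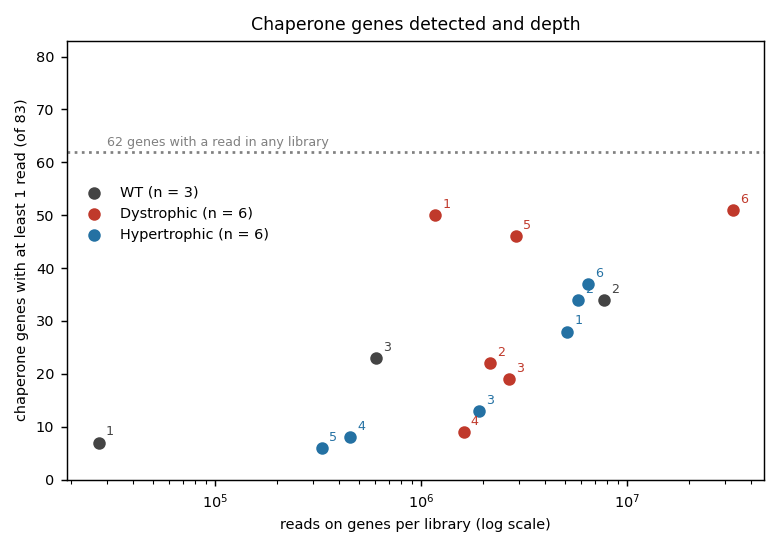
Chaperone genes with at least 1 read (vertical axis, of 83) against reads on genes per library (horizontal axis, log scale), each point a library numbered by its replicate and coloured by condition. The dotted line marks the 62 genes with a read in any library. Dystrophic 1 and 5 lie above libraries of the other conditions with more reads, and the conditions overlap.

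Pooled over libraries, 36 members were found in all 3 conditions, 16 in Dys and Hyp but not WT, 7 in Dys alone (Dnajc15, Dnajc19, Dnajc24, Dnajc30, Hspa12b, Hspa13 and Hspb2), 1 in WT alone (Dnajc6), 1 in Hyp alone (Dnajc16) and 1 in WT and Dys but not Hyp (Dnajc18). These numbers rest on 3 WT libraries and 6 of each other condition, and over all genes with reads 23.9% were found in Dys alone, 7.12% in Hyp alone and 2.28% in WT alone, beside 11.3%, 1.61% and 1.61% of the 62 members. With the 6 libraries exchanged, only Hspa13 and Hspb2 of the 7 were still found in Dys alone, joined by Hspa4l, Hyp alone held Dnaja4, Dnajc16, Dnajc19 and Hspa2, and Dnajc18 and Dnajc4 were in WT and Hyp but not Dys. Of the 387 member and library pairs with reads, 88.1% held 10 or more, close to the 84.3% over all genes. Zeros were also common where reads were predicted. In 582 pairs the mean CPM of the other libraries of the same condition predicted at least 10 reads at that library's depth. A single high library can set this mean. Of the 582 pairs, 277 (47.6%) were at 0, against 56.1% of such pairs over all genes. The share at 0 was 30% in the CCT family (27 of 90 pairs), 35% in HSP90 (14 of 40), 53.7% in HSP70 (44 of 82) and 73.7% in the small heat shock proteins (14 of 19).

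The share of a family was its mean CPM over the mean CPM of all members, so libraries with more chaperone CPM weigh more. HSP90 genes took 27.5%, CCT 21.2%, DNAJC 17.2%, HSP70 12.5%, DNAJB 7.12%, DNAJA 6.79%, HSP110 3.16%, the mitochondrial chaperonin 2.79% and the small heat shock proteins 0.768%. Without Hypertrophic 4 the shares of HSP90 and CCT were 23.8% and 23.0%. Without WT 1 the HSP110 share was 0.865%, and without WT 3 the share of the mitochondrial chaperonin was 1.84%. Together the 83 genes made up between 0.138% (Dystrophic 4) and 0.780% (Dystrophic 3) of a library's reads on genes. Their summed level was 4070 ± 1251 CPM in WT (SD, n = 3), 5292 ± 2168 CPM in Dys and 4413 ± 1655 CPM in Hyp libraries (SD, n = 6 each), so the means differed by less than 1 SD.

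**Figure D3:**
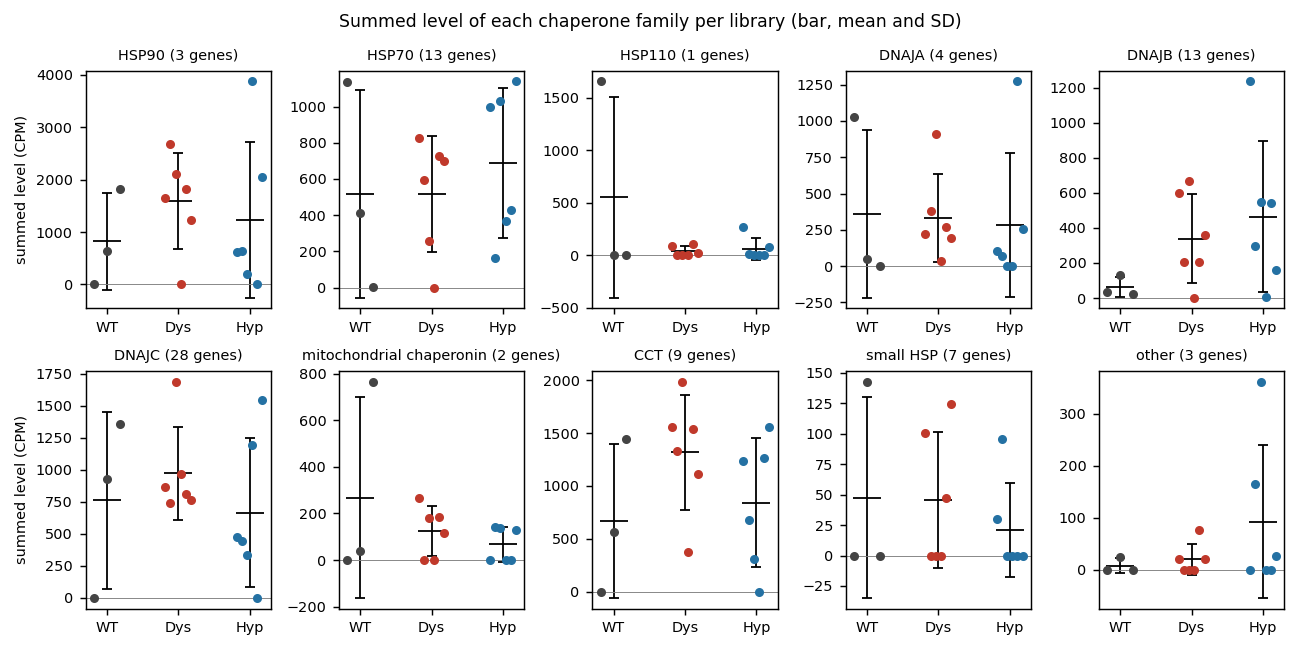
Summed level in CPM (vertical axes, each with its own scale) of the genes of each chaperone family per library (points) in WT, dystrophic (Dys) and hypertrophic (Hyp) EVs, with the mean as a horizontal bar and the SD as whiskers (n = 3, 6 and 6). The WT mean of HSP110 rests on 1 library at 1653 CPM. The conditions overlap in all 10 families.

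The HSP90 family holds the member with the highest level per length. Hsp90ab1, the constitutive cytosolic HSP90 on chromosome 17 (45567775 to 45573271), had a mean of 364 CPM per kilobase of exon, ahead of Cct5 at 97.7 and Hspa8 at 75.6. It was at 0, 577 and 1812 CPM in WT libraries. In Dys libraries its lowest, median and highest levels were 0, 1572 and 2540 CPM, and in Hyp 3.04, 514 and 2576 CPM. High and low libraries occurred in each condition and the groups overlapped. After the exchange the medians were 1080 CPM in Dys and 1350 CPM in Hyp. The edgeR log2 fold change was 0.48 (SE 1.2) for Dys against WT, -0.42 (SE 1.16) for Hyp against WT and -0.90 (SE 0.97) for Hyp against Dys, with adjusted p of 1 in each. The sign for Hyp against WT turned with the scaling, to 0.26 with DESeq2 size factors and to 0.23 without TMM. Hsp90aa1, the stress-inducible cytosolic form, was detected in 9 libraries at up to 276 CPM, and 47.5% of its 50-base stretches are shared. Hsp90b1, the form of the endoplasmic reticulum, was detected in 7 libraries and reached 1299 CPM in Hypertrophic 4, whereas it was at 0 in the other 5 Hyp libraries.

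Among the HSP70 genes the constitutive ones led and the inducible pair had no reads. Hspa8, the constitutive cytosolic HSP70 that also uncoats clathrin, was at 551, 216 and 1.66 CPM in WT libraries. In Dys it was at 0, 360 and 567 CPM (lowest, median, highest) and in Hyp at 0, 402 and 638 CPM, so the groups overlapped almost completely. Its log2 fold change was 0.85 (SE 1.89) for Dys against WT, 0.58 (SE 1.87) for Hyp against WT and -0.27 (SE 1.48) for Hyp against Dys in edgeR, with adjusted p of 1 in each. Hspa9, the mitochondrial HSP70, was detected in 12 libraries, at 551, 60.3 and 1.66 CPM in WT, with medians of 76.4 CPM in Dys and 200 CPM in Hyp, or 116 and 110 CPM with the exchange. Hspa4, a nucleotide exchange factor related to HSP110, was detected in 7 libraries with a highest level of 255 CPM in Hypertrophic 6. Hspa5, the HSP70 of the endoplasmic reticulum and a target of the unfolded protein response, was detected in 6 libraries and did not pass 75 CPM. Hsph1 is the only gene that its symbol placed in HSP110. It was at 1653 CPM in WT 1, which stands for 45 reads in the shallowest library, and at 0 in the other 2 WT libraries. Without WT 1 the WT mean fell from 551 to 0 CPM.

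The J-domain genes were numerous and unevenly detected. Dnajb4, a cytosolic J-domain partner of HSP70, was the only member with reads everywhere. It was at 36.7 (1 read), 35.4 and 19.9 CPM in WT, at 1.39, 12.0 and 302 CPM in Dys (lowest, median, highest) and at 4.43, 202 and 651 CPM in Hyp libraries. The 3 highest libraries were Hyp, yet 3 other Hyp libraries lay between 4.43 and 44.1 CPM, where the groups overlapped. After the exchange its medians were 173 CPM in Dys and 12.6 CPM in Hyp. In edgeR its log2 fold change was 2.34 (SE 2.19) for Hyp against Dys, with an adjusted p of 1, and 2.76 (SE 2.97) for Hyp against WT, with an adjusted p of 0.761. Dnajb6, a J-domain protein in which mutations cause a limb-girdle muscular dystrophy, was detected in 10 libraries with a highest level of 325 CPM in Hypertrophic 1. Dnajb2, a neuronal co-chaperone, had no read in the 3 WT libraries and was detected in 4 Dys and 4 Hyp libraries at up to 364 CPM. Dnaja1, a cytosolic co-chaperone that stimulates Hspa8, was at 955, 24.6 and 1.66 CPM in WT, at 0, 109 and 909 CPM in Dys and at 0, 0 and 116 CPM in Hyp libraries. With the exchange its medians were 64.5 CPM in Dys and 40.6 CPM in Hyp. Dnaja2, its close relative, was detected in 11 libraries and stayed at or below 137 CPM. Dnaja4 was detected in 3 libraries only, with 1269 CPM in Hypertrophic 5, and 42.7% of its 50-base stretches occur in transcripts of Wdr61.

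Of the 28 DNAJC genes, 21 had reads. Dnajc7, which binds both HSP70 and HSP90, was at 0, 261 and 190 CPM in WT libraries. It was at 0.622, 96.2 and 1175 CPM in Dys (lowest, median, highest) and at 0, 2.01 and 707 CPM in Hyp libraries. With the exchange its medians were 96.2 CPM in Dys and 28.9 CPM in Hyp. Dnajc8, a spliceosome-associated J-domain protein, was detected in 10 libraries: in all 6 Dys libraries, where it lay between 70.5 and 172 CPM, in 2 WT libraries at 150 and 479 CPM and in 2 Hyp libraries at 97.7 and 147 CPM. With the exchange it was detected in 4 Dys and 4 Hyp libraries. Dnajc13, an endosomal co-chaperone, was detected in 5 libraries and reached 729 CPM in Hypertrophic 4.

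The CCT ring is built of 8 different subunits, of which 7 (Cct2, Cct3, Cct4, Cct5, Cct6a, Cct7 and Cct8) are members with reads and the eighth, Tcp1, is counted below. All 7 were detected together in 5 libraries, none in 2 and between 1 and 6 in the other 8. The testis form Cct6b and Cct8l1 had no reads. In Dystrophic 1 the 7 levels lay within 2.77-fold of each other, in Hypertrophic 6 within 3.35-fold and in Dystrophic 5 and 6 within 5.35-fold and 5.59-fold. In Hypertrophic 1 Cct7 was at 696 CPM while Cct4 and Cct6a held 1 read each. Subunits of this complex were thus at similar levels in some libraries and far apart in others. Tcp1 was detected in 10 libraries with a mean of 180 CPM.

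Cct5, the subunit with the highest level per length, was at 0, 161 and 351 CPM in WT, at 0, 249 and 352 CPM in Dys (lowest, median, highest) and at 0, 235 and 1266 CPM in Hyp libraries. Cct4 was at 0, 28.3 and 356 CPM in WT, at 0, 348 and 403 CPM in Dys and at 0, 0.0977 and 294 CPM in Hyp libraries. Its 5 Dys libraries with reads lay between 306 and 403 CPM, and Dystrophic 4 had none. Cct8 was detected in all 6 Dys libraries at 150 to 419 CPM, in 3 of 6 Hyp libraries at up to 205 CPM and in 2 of 3 WT libraries at up to 309 CPM. With the exchange it was detected in 5 Dys and 4 Hyp libraries, at medians of 188 and 151 CPM, and the Cct4 medians were 299.8 CPM in Dys and 105 CPM in Hyp. Cct2 was detected in 5 Dys, 3 Hyp and 2 WT libraries, with a highest level of 429 CPM in WT 3. Cct7 had 0, 0 and 1 reads in WT, and in Dys and Hyp it was at medians of 202 and 31.9 CPM. Cct6a and Cct3 were the 2 lowest subunits per length, at 14.6 and 5.13 CPM per kilobase, and were detected in 8 and 7 libraries. The summed level of the family was 671 ± 729 CPM in WT (SD, n = 3), 1317 ± 543 CPM in Dys and 841 ± 611 CPM in Hyp libraries (SD, n = 6 each), and the 3 ranges overlapped. With the 6 libraries exchanged the Dys and Hyp means were 1182 and 976 CPM.

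Hspd1 and Hspe1 share a start region and form 1 complex, but their reads did not occur together throughout. Both were detected in 5 libraries, Hspd1 alone in 3, Hspe1 alone in 2 and neither in 5. Hspe1 was at 0, 0 and 765 CPM in WT, at 0, 107 and 182 CPM in Dys (lowest, median, highest) and at 0, 0 and 40.5 CPM in Hyp libraries. With the exchange its medians were 20.3 CPM in Dys and 16.4 CPM in Hyp. Hspd1 was highest in Hypertrophic 3, at 137 CPM, where Hspe1 had no read. The 2 genes overlap on opposite strands, and the sources differ on whether the library kit kept the strand, so reads in the overlap cannot be assigned with certainty.

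The small heat shock proteins were the family detected least, in 12 of 105 gene and library pairs. Hspb1, known as HSP25 in the mouse, was at 0, 111 and 0 CPM in WT, at 0, 17.8 and 87.6 CPM in Dys (lowest, median, highest), and Hyp libraries held 1 read among all 6. With the exchange 2 Dys and 2 Hyp libraries held reads of Hspb1, at up to 84.6 and 87.6 CPM. Hspb8, which acts with Bag3 in muscle, was detected in 4 libraries at up to 78.6 CPM, and Hspb6 in 2 at up to 16.9 CPM. Hspb7 and Hspb3, which are known from striated muscle, had no reads, and Hspb2 had reads in 1 library. Cryab, a small heat shock protein of muscle and lens that the symbol rule does not take, was detected in 8 libraries at up to 332 CPM. Of the 3 other genes, Hspbap1 reached 361 CPM in Hypertrophic 3, Hspbp1, an exchange factor of HSP70, was detected in 4 libraries and Hspb11, a part of the ciliary transport machinery, in 5.

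**Figure D4:**
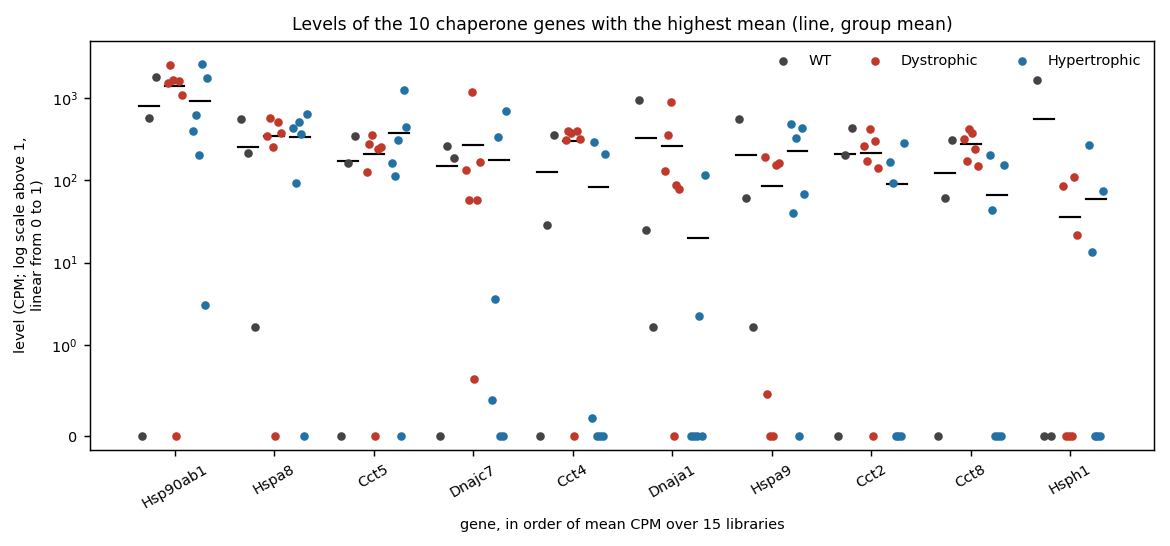
Level in CPM (vertical axis, log scale above 1 and linear from 0 to 1) of the 10 chaperone genes with the highest mean, in order of that mean, with 1 point per library coloured by condition and a line at each group mean (n = 3, 6 and 6). Points at 0 occur for every gene, and the conditions overlap in all 10.

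No chaperone gene passed the test in any comparison of conditions. The edgeR quasi-likelihood test was run on 6887 genes, which included 49 of the 83 members, with Benjamini-Hochberg adjusted p-values and a threshold of 0.05. It called 0 members for Dys against WT, where it called 0.0145% of all genes tested, 0 for Hyp against WT (0.0290% of all genes) and 0 for Hyp against Dys (0.0145% of all genes). At an unadjusted p under 0.05 there were 3, 4 and 3 of the 49 members, beside 2.02%, 8.02% and 12.0% of all genes. The biological coefficient of variation was 3.04, an SD between libraries of a condition of about 3 times the mean. The 3 comparisons share libraries, so their values are not independent. The median log2 fold change of the 49 members was 1.08 for Dys against WT, 0.84 for Hyp against WT and -0.36 for Hyp against Dys, beside 1.38, 0.66 and -0.52 over all genes tested. Without WT 2, the members' medians were 6.86 for Dys against WT and 5.61 for Hyp against WT, beside 8.15 and 5.96 over all genes. With the 6 libraries exchanged, the members' median for Hyp against Dys turned to 0.08, beside -0.12 over all genes. Without TMM scaling the medians over all genes were 1.57, 1.02 and -0.37.

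The members with the smallest p-values were those with a condition at or near 0 reads, so that no fold change is given. Dnajc15, a J-domain protein of the inner mitochondrial membrane, had 51, 68, 112, 1082, 49 and 1225 reads in the 6 Dys libraries and none in the 3 WT or the 6 Hyp libraries. The groups did not overlap, and the edgeR adjusted p was 0.123 for Hyp against Dys (unadjusted 0.00144) and 0.433 for Dys against WT. Detection in Dys alone held for 23.9% of all genes with reads and 11.3% of the members with reads. How many of these genes had reads in all 6 Dys libraries was not counted. The reads of Dystrophic 4 to 6 are among those whose numbers are crossed. With the 6 libraries exchanged, 3 Dys and 3 Hyp libraries hold reads of Dnajc15, and the adjusted p for Hyp against Dys was 0.9997. Dnajc18 had 551 reads in WT 2, 115 and 607 in Dystrophic 5 and 6, and none elsewhere. Its edgeR adjusted p was 0.267 for Hyp against WT and 0.134 for Hyp against Dys, and without WT 2 the former was 1. Hspb1 had adjusted p of 0.298 and 0.143 in the same comparisons, and without WT 2 the former was 0.998. For Dys against WT, Dnajb2, Cct7, Dnajc13 and Dnajc2, a ribosome-associated J-domain protein, had the next smallest p, each with an edgeR adjusted p of 0.433. For Hyp against WT, Dnajb2, Cct7 and Dnajc13 had an adjusted p of 0.430. For Hyp against Dys, Dnajc17 and Dnajb1, an inducible HSP70 partner, followed with adjusted p of 0.634 and 0.846 in edgeR. Dnajb1 was detected in 3 Dys libraries and 1 Hyp library, and Dnajc17 had 331 and 206 reads in Hypertrophic 1 and 2 and at most 3 in each other library.

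DESeq2 on the same genes gave other counts. It called 9 members for Dys against WT (all higher in Dys), 10 for Hyp against WT (8 higher, 2 lower) and 2 for Hyp against Dys (both lower in Hyp), beside 19.1%, 22.2% and 4.69% of all genes, and the adjusted p of 5 members was missing in each comparison. The 9 were Dnajb11, Dnajc2, Dnaja3, Dnajc27, Dnajb9, Dnajc3, Dnajb14, Cct7 and Dnajb2. Of these, 8 had no read in any WT library and Cct7 had 1. The 2 lower in Hyp were Dnajc18 and Hspb1.

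Partners of these chaperones outside the symbol rule were read out of the same test. Of 42 co-chaperones and folding factors, 41 had reads, none in every library, and 34 were tested. EdgeR called 0 of the 34 in each comparison, and the smallest adjusted p was 0.123. The unadjusted edgeR p was under 0.05 for 0, 2 and 3 of the 34, beside 2.02%, 8.02% and 12.0% of all genes. Pfdn5, a prefoldin subunit that passes clients to CCT, was detected in 13 libraries with a mean of 338 CPM. Bag1, an exchange factor of HSP70, was detected in 12 libraries with a mean of 294 CPM, and Cdc37, which brings kinases to HSP90, in 11 with a mean of 215.3 CPM. DESeq2 called 6, 9 and 2 of the 34, beside 19.1%, 22.2% and 4.69% of all genes.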

How the data were processed

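RNA-seq was performed on EV RNA of 15 mouse libraries (3 WT, 6 Dys, 6 Hyp), amplified before library preparation and sequenced as single reads of 50 bases. The authors deposited raw counts per gene symbol and library, which were neither normalized nor filtered. The submitters' processing notes name TopHat, HTSeq and DESeq with the build mm10, while the annotation and the strand setting of the counting are not given in the sources used here. The 5 summary lines of each table (57.9% to 99.2% of its numbers) entered neither library sizes nor tests.

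Groups were taken from the genotype labels, and replicates were numbered in the order of the samples. Nothing says that samples of a condition were prepared independently beyond the pooling of mice, so p-values measure the spread between these libraries, which may be technical. CPM were computed over all gene symbols, and a gene was called detected with at least 1 count. Gene positions and exon lengths are from GENCODE M21, which held all 83 members. Counts were tested with edgeR 4.0.16 (TMM, filterByExpr, quasi-likelihood fit to all 15 libraries, no covariate) in R 4.3.3 and, as an alternative, DESeq2 1.42.0, which the study's DESeq is not. Both used Benjamini-Hochberg adjustment over all genes tested. Simulated counts with 200 changed genes were used to check that the edgeR script ran correctly. Their spread between libraries was set far below the biological coefficient of variation of 3.04 found here. They therefore do not show what the test could detect in these data. Standard errors were derived from the F statistic. Shared 50-base stretches were counted between GENCODE transcripts of different genes. Alternatives were the scaling, the filter, the detection minimum, the libraries left out and the exchange of the 6 libraries with crossed numbers.

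Named genes were those edgeR called, those with reads in every library, the 3 with the highest mean CPM in each family and the 10 highest of all families, the 5 with the smallest p per comparison, Hspa1a and Hspa1b, and all chaperonin subunits. From the co-chaperones, those called and the 3 of highest mean CPM were named. Genes named beyond this rule were chosen after their values were seen. The members and lists were chosen with earlier results of these data known.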

Additional observations from a re-analysis of the deposited data

Results flagged for a closer look

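In each condition of 6 libraries, the summed level of each family and the level of each member detected in 10 or more libraries were searched for a library far from the others (its gap to the nearest library, divided by the range, above Dixon's critical value for 6 samples). Of 54 groups of values, 12 held such a library. Chance flags about 1 in 20 groups where values are normally distributed, which these skewed levels with many zeros are not, so the 12 cannot be read against that rate.

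Among families, HSP110 was at 270 CPM in Hypertrophic 1, where the next library held 75.2 CPM. DNAJA was at 1272 CPM in Hypertrophic 5, against 253 CPM in the next library, and this sum was almost wholly Dnaja4. DNAJC was at 1687 CPM in Dystrophic 3, against 964 CPM in the next library. The small heat shock proteins were at 95.5 CPM in Hypertrophic 2, against 29.7 CPM in the next library. The 3 other genes summed to 76.1 CPM in Dystrophic 5, against 21.04 CPM in the next library.

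Among single genes, Cct4 was at 0 in Dystrophic 4, whereas the other 5 Dys libraries held at least 306 CPM. Cct5 was at 1266 CPM in Hypertrophic 5, against 440 CPM in the next library. Hypertrophic 1 stood apart for Cct7, at 696 CPM against 193 CPM in the next library, and for Dnajb6, at 325 CPM against 47.9 CPM. Dnaja1 was at 116 CPM in Hypertrophic 6, against 2.22 CPM in the next library. Dystrophic 3 stood apart for Dnajb4, at 302 CPM against 21.4 CPM, and for Dnajc7, at 1175 CPM against 169 CPM in the next library.

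Outside the members, the pseudogene symbol Hsp25-ps1, a copy of Hspb1, had 7 reads in Dystrophic 6 and none elsewhere. Of the 10 pseudogene symbols that the rule left out, 3 had reads.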

How the results depend on the processing

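No paired analysis was possible because the labels give the conditions no shared replicate numbers. The count of 0 called members in edgeR did not change with the scaling, the filter, the libraries entered, the exchange or any library left out, where it ranged from 0 to 0 in each comparison. DESeq2 called 9 (Dys against WT), 10 (Hyp against WT) and 2 (Hyp against Dys), and the cause was not tested. Of the values recomputed under alternatives, 779 were classed as the same, 8 passed the threshold under DESeq2 alone, 5 moved and 15 turned sign. For single genes, the same meant an unchanged direction and side of the threshold. For counts of called genes it meant a number within a set ratio. For means of detected genes and family levels it meant a shift of less than 1 SD between libraries. This is a wide limit where the SD exceeds the mean, as for HSP110 in WT (551 ± 954 CPM). The sign of the Hsp90ab1 log2 fold change for Hyp against WT turned to 0.26 with DESeq2, 0.23 without TMM, 0.19 with the 6 libraries exchanged and 0.13 with the 9 others alone. With the exchange, the log2 fold changes for Hyp against Dys turned to 0.19 for Hsp90ab1 and 0.12 for Hspa8, and the directions of Dnajc15, Hspb1 and Dnajc17 turned with an adjusted p of 0.9997, that of Dnajc18 with 0.328, while 23 of the 49 members kept their direction. Leaving out 1 library at a time, the Hsp90ab1 log2 fold change ranged from -0.10 (without WT 1) to 1.97 for Dys against WT and from -1.002 to 1.06 (without WT 3) for Hyp against WT, and turned to 0.0025 without Hypertrophic 1. The adjusted p for Hyp against WT ranged from 0.238 to 1 (without WT 2) for Dnajc18 and from 0.263 to 0.998 for Hspb1. With the exchange the Dys mean of the 3 other genes was 91.3 CPM instead of 19.6 CPM. Without mitochondrial and hemoglobin genes in the total, the means of all members were 5568 CPM in WT, 6496 CPM in Dys and 5290 CPM in Hyp instead of 4070, 5292 and 4413 CPM. Mean numbers of detected genes without 1 library ranged from 15 to 28.5 in WT, 29.2 to 37.6 in Dys and 17.8 to 24 in Hyp, and with at least 10 counts they were 16, 30.3 and 18.5. WT family means rest on few libraries: without 1 library they ranged from 0 to 826 CPM for HSP110, 27.6 to 540 CPM for DNAJA, 19.7 to 402 CPM for the mitochondrial chaperonin and 283 to 1006 CPM for CCT. Depth limits what a 0 means, most in WT 1.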
